A study of Homo sapiens with 4 samples.

Results

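The m6A sites of 9 genes of the translation machinery are described here: the ribosomal protein genes RPL7A, RPL32 and RPL5, the initiation factor genes EIF3B, EIF4G1, EIF2S2 and EIF4G2, and the elongation factor genes EEF1A1 and EEF2. Their peaks were taken by position, as every listed m6A peak whose summit lay inside the gene's hg19 span. This gave 7 of the 52188 peaks of CDCA-treated cells and 8 of the 63093 peaks of control cells. The genes were chosen in part from the measured values, since 6 of them hold a peak with a very high −log10 q that is listed in 1 library alone. Those peaks are therefore a description and no finding. The study profiled GES-1, a human gastric epithelial cell line. Cells were given chenodeoxycholic acid (CDCA, a primary bile acid) at 100 µM for 48 h or served as the control, for which no dose or time is recorded. Each condition had 1 library of RNA immunoprecipitated with an m6A antibody and 1 input library, and the series asks how m6A differs between these states, in connection with the m6A eraser ALKBH5. Only the peak lists of the immunoprecipitated RNA are analysed here, and the identity of the cells cannot be read from them.

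Ribosomal proteins and translation factors are made from some of the most abundant messenger RNAs of a growing cell. Initiation assembles the small ribosomal subunit on the mRNA, elongation factors then feed it with amino acids and move it along, and the large-subunit proteins RPL7A, RPL32 and RPL5 are part of the ribosome itself. N6-methyladenosine (m6A) is the commonest internal mark of mRNA; it is placed mostly in long exons and around stop codons, and short-exon housekeeping transcripts are known to carry little of it. Many mRNAs of ribosomal proteins and elongation factors begin with a 5′ terminal oligopyrimidine tract (TOP), a C followed by further pyrimidines, which ties their translation to nutrient signalling.

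The bases at a single annotated start of each gene were checked for such a run. A gene without the run at that base is not shown to lack a TOP. RefSeq start windows of the build GRCh38.p14 matched 7 of the 9 genes, all but RPL5 and EIF2S2. Each line gives 10 bases before the annotated start and the first 20 bases from it. Capitals mark a C at the start and the unbroken run of C and T after it, where at least 4 follow, and the coordinates are GRCh38.p14, not the hg19 of the peaks.
RPL7A (chr9:133348208-133348237, plus strand): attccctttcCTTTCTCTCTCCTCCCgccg
EEF1A1 (chr6:73521013-73521042, minus strand): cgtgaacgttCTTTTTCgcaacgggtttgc
EEF2 (chr19:3985444-3985473, minus strand): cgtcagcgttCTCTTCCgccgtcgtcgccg
RPL32 (chr3:12841546-12841575, minus strand): acgacccatcagcccttgcgcgccaccgtc
The run was present at the annotated start of RPL7A (16 bases), EEF1A1 (7 bases) and EEF2 (7 bases), and 1429 of 35116 start windows held it (4.07%). RPL32, EIF3B, EIF4G1 and EIF4G2 did not have it at the annotated base. RPL32 is shown because a shorter run of pyrimidines begins 2 bases further on. It is not the only such case: in EIF4G2, whose line is not shown, a run of 7 bases led by a C begins 1 base further on. Of the 3 genes with the run, EEF1A1 and EEF2 had no listed m6A peak and RPL7A had 1. Of the genes without it at the annotated base, EIF4G2 had no listed peak, and RPL32, EIF3B and EIF4G1 had at least 1 each. The genes were chosen in part by their peaks, so nothing is read from this. The sequences under the peaks are not shown, since they need an hg19 genome, which was not used here.

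Most of the m6A peaks listed on these genes were found in 1 library alone, at a share near that of the lists as a whole. In the CDCA list 3 genes had a peak (RPL5, EIF4G1 and EIF2S2), and in the control list 5 (RPL7A, RPL32, EIF3B, EIF4G1 and EIF2S2). Only EIF4G1 and EIF2S2 had peaks in both. EEF1A1, EEF2 and EIF4G2 had none in either list. Of the 7 CDCA peaks, 5 were listed in CDCA alone, meaning that they did not overlap a control peak by even 1 bp, and over all CDCA peaks this share was 77.8%. Of the 8 control peaks, 6 were listed in control alone, against 81.8% over all control peaks. So 2 peaks of each list were shared, 28.6% of the CDCA peaks (95% exact Clopper-Pearson interval 3.67 to 71.0) and 25% of the control peaks (3.19 to 65.1). All such intervals cover counting error only, and with 1 library per condition nothing was tested between the conditions. A peak missing from a list may also have lain under the thresholds of the authors.

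**Figure D1:**
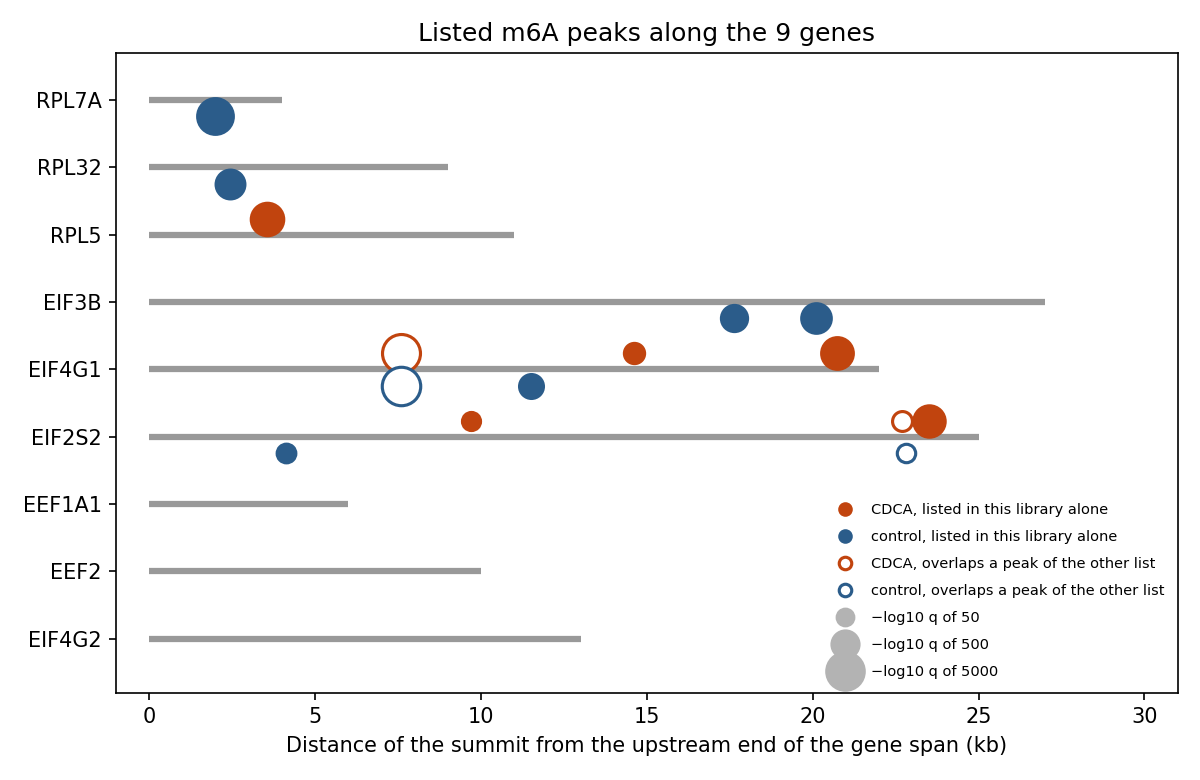
Position of each peak summit along the 9 gene spans, in kb from the upstream end, with CDCA peaks above each line and control peaks below it. Circle area grows with −log10 q, filled circles are peaks of 1 library alone and open circles overlap a peak of the other list. EIF4G1 and EIF2S2 are the genes with open circles, and the lowest 3 lines are empty.

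The local background under these peaks is given as a description, since a choice of genes by peaks with a very high −log10 q can favour a high background. It is the level the peak caller expected under a summit, recovered here from height and fold enrichment, in the height units of its own list. Its median was 40.0 over the 7 CDCA peaks, against 1 over all CDCA peaks, and 47.6 over the 8 control peaks, against 1.36 over all control peaks. All 15 peaks were above the median of their list. The fold enrichment of the 7 CDCA peaks had a median of 9.34, against 8.63 for the whole list, and that of the 8 control peaks a median of 12.2, against 9.67. Peaks with a −log10 q of 100 or more, here called strong, also had a higher median background than all peaks in both lists. The strong peaks of these genes had a higher median still. The 4 strong CDCA peaks had a median background of 220.0 and a median fold of 9.36, against 13.6 and 20.5 over all strong CDCA peaks. The 6 strong control peaks had 58.7 and 12.2, against 13 and 21.0. The lowest listed fold was 6 in both lists. Height, fold and −log10 q are the authors' own values and rank peaks within 1 list only.

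**Figure D2:**
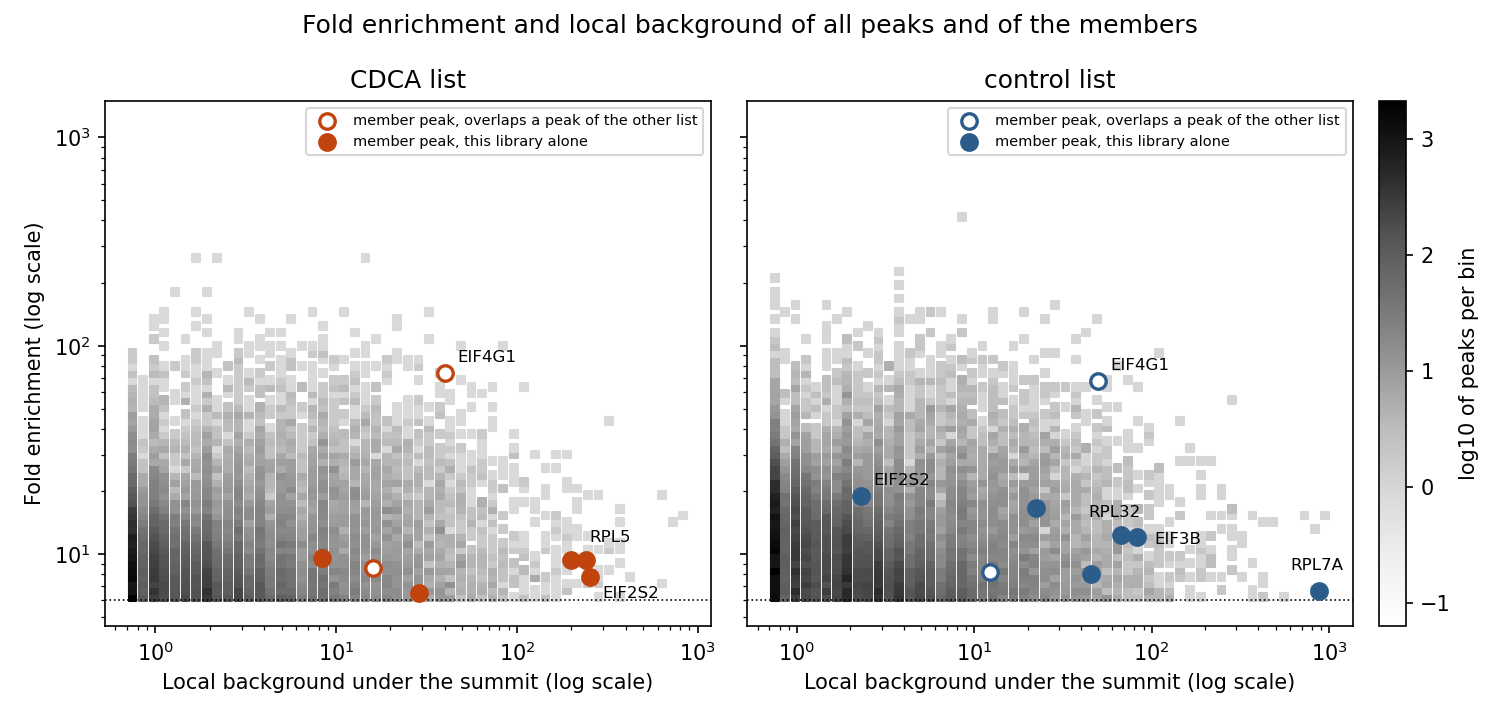
Fold enrichment against local background on log axes for all peaks (grey, darker for more peaks in a bin) and for the peaks of the 9 genes (circles), CDCA list left and control list right. The dotted line is the lowest listed fold of 6. The labelled filled circles of RPL5 and EIF2S2 in the CDCA panel and of RPL7A in the control panel lie far to the right and low. The open EIF4G1 circle is high in both panels.

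The CDCA list had 4 strong peaks in these genes, of which 3 were listed in CDCA alone, and the control list had 6, of which 5 were listed in control alone. Over all strong peaks those shares were 8.76% of 4123 CDCA peaks and 12.4% of 4901 control peaks, but the genes were chosen by such peaks, so nothing is read from the contrast. The 3 strong CDCA-only peaks lay on 3 genes and had a fold of 7.79 to 9.38 over backgrounds of 200 to 255. The 5 strong control-only peaks lay on 4 genes and had a fold of 6.68 to 16.7 over backgrounds of 22.4 to 879. Over the whole lists, strong peaks with a background of at least 100 were listed in CDCA alone in 21 of 131 cases (16.0%, 10.2 to 23.5) and in control alone in 18 of 142 cases (12.7%, 7.69 to 19.3). With a background of 50 to 100 the shares were 16.0% of 293 CDCA peaks (12 to 20.8) and 16.8% of 358 control peaks (13 to 21.0). With 10 to 50 they were 9.59% of 2064 CDCA peaks (8.36 to 10.9) and 11.9% of 2319 control peaks (10.6 to 13.3). Under 10 they were 5.81% of 1635 CDCA peaks (4.73 to 7.06) and 12.2% of 2082 control peaks (10.8 to 13.7). The 3 strong CDCA-only peaks of these genes fall in the highest band, and of the 5 strong control-only peaks 1 falls in the highest, 2 in that of 50 to 100 and 2 in that of 10 to 50.

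The ribosomal protein genes had 1 peak each, and no site in common between the conditions. RPL7A, a protein of the large subunit, had no CDCA peak and 1 control peak of 1138 bp on chromosome 9 at 136216335 to 136217472. Its summit was 1.98 kb from the upstream end of a 4 kb span, so it covered 28.4% of that span. The summit height was 5873, made of 6809 steps of the control list's height unit (95% exact Poisson interval 6648 to 6973, if a step is a fragment). That was the tallest of the 8 control peaks. It also had the highest background of the 8, 879, so that its fold was 6.68, and 11.6% of control peaks had a lower one. By −log10 q (2673) it ranked 73 of 63093, and by fold 55781. The nearest CDCA peak was 5319 bp away. In RefSeq (GRCh38.p14), the source of all neighbours named here, RPL7A lies between MED22 and SURF1 in the compact surfeit cluster and holds the 4 small nucleolar RNA genes SNORD24, SNORD36A, SNORD36B and SNORD36C, and since the lists give no strand or exon, RNA of these cannot be told apart from that of RPL7A.

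RPL32, whose mRNA is a common reference in expression assays, likewise had no CDCA peak. Its control peak was short, 234 bp on chromosome 3 at 12881475 to 12881708, with a summit 2.43 kb from the upstream end of a 9 kb span. It reached a height of 841 (975 steps, 915 to 1038) over a background of 67.4, a fold of 12.3 and a −log10 q of 583. The nearest CDCA peak was 57036 bp away. SNORA7A lies inside RPL32, and CAND2 overlaps it.

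RPL5, which carries ribosomal RNA into the large subunit and can bind the p53 regulator MDM2, showed the opposite listing. Its 1 peak was in the CDCA list, 428 bp on chromosome 1 at 93300239 to 93300666, with the summit 3.54 kb from the upstream end of an 11 kb span. The height was 2250 (3517 steps, 3402 to 3635), the background 240.0, the fold 9.34 and the −log10 q 1311. It ranked 214 of 52188 by −log10 q and 21781 by fold. No control summit fell within the span, and the nearest control peak was 8240 bp away. DIPK1A overlaps RPL5, and SNORA66 and SNORD21 lie inside it. The peaks of the 3 ribosomal protein genes thus all had a summit less than 50% of the way along their spans. For RPL7A it was 49.5%, and that span is 0.791 kb longer than the RefSeq gene. On which side of the middle of the RPL7A gene its summit lies is therefore uncertain.

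**Figure D3:**
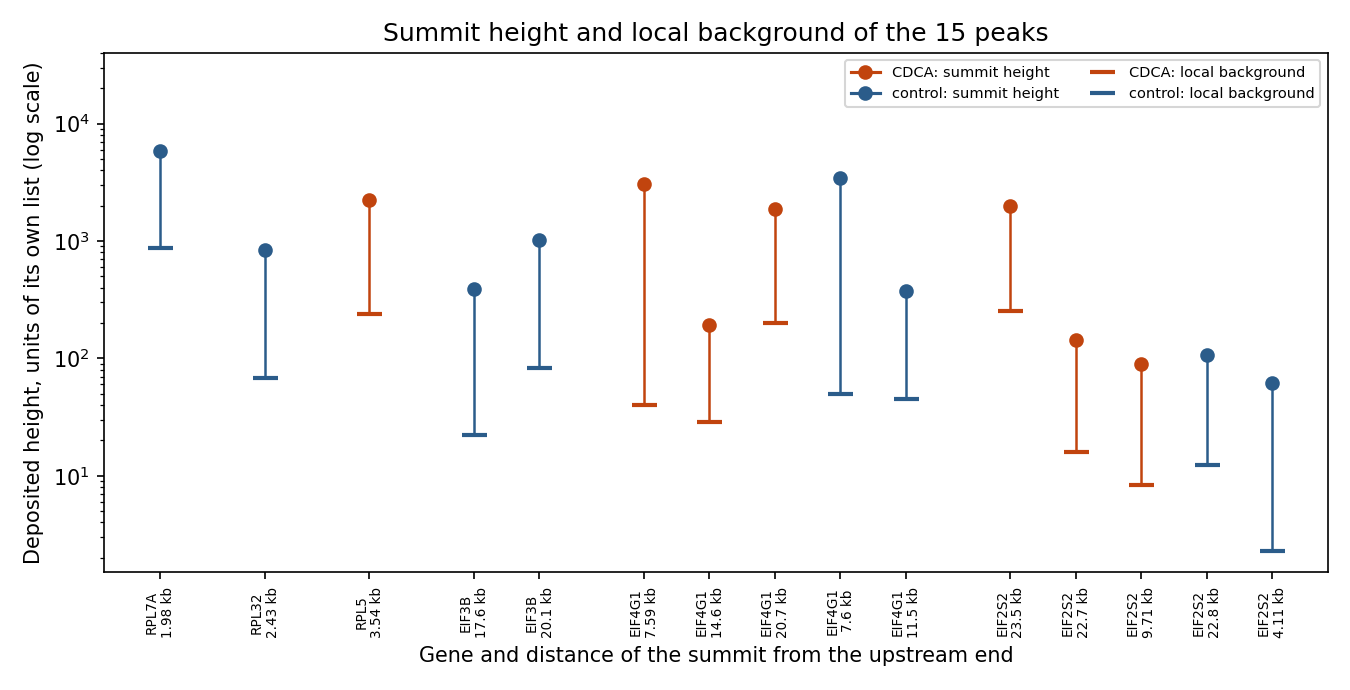
Summit height (circle) and local background (dash) of each of the 15 peaks on a log axis, in the height unit of its own list, with CDCA peaks left of control peaks within each gene. The length of a line is close to the fold enrichment on the log scale; it is longest for the EIF4G1 peak 7.59 kb (CDCA) and 7.60 kb (control) from the upstream end and short for RPL7A.

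EIF4G1 held the strongest site of the set, and it was present in both conditions. Its protein is the scaffold that joins the cap-binding factor, the helicase eIF4A and eIF3 into the initiation complex. The CDCA peak covered 543 bp on chromosome 3 at 184039261 to 184039803, with a height of 3039 (4751 steps, 4617 to 4888) over a background of 40.0, a fold of 74.1 and a −log10 q of 4409. The control peak covered 910 bp at 184038899 to 184039808, with a height of 3474 (4028 steps, 3905 to 4154) over a background of 50, a fold of 68.1 and a −log10 q of 4910. The CDCA peak ranked 23 of 52188 by −log10 q and 145 by fold, and the control peak 22 of 63093 and 223. The summits were 10 bp apart, and the whole CDCA peak lay inside the control peak, of which it covered 59.7%. Both summits were 7.6 kb from the upstream end of the 22 kb span, or 34.5% of its length.

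Away from that site EIF4G1 differed between the lists. A strong CDCA-only peak of 334 bp stood at 184052575 to 184052908, with its summit 1.25 kb before the downstream end of the span. It had a height of 1885 (2947 steps, 2842 to 3055), a background of 200, a fold of 9.38 and a −log10 q of 1103. FAM131A is the next coding gene on that side. A weaker CDCA-only peak of 200 bp lay at 184046530 to 184046729, with a fold of 6.54, the lowest of the 7 CDCA peaks, and a −log10 q of 87.0. In control cells a strong peak of 371 bp was listed at 184043342 to 184043712, with a height of 372 (431 steps, 391 to 474) over a background of 45.2, a fold of 8.07 and a −log10 q of 197, and the nearest CDCA peak to it was 2818 bp away. SNORD66 lies inside EIF4G1.

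EIF3B, which encodes a core subunit of the eIF3 complex, had peaks in control cells only. Its stronger peak, 251 bp on chromosome 7 at 2413982 to 2414232, had a height of 1011 (1172 steps, 1106 to 1241) over a background of 83.0, a fold of 12.05 and a −log10 q of 692. The other, 406 bp at 2411274 to 2411679, had a height of 391 (453 steps, 412 to 497) over a background of 22.4, a fold of 16.7 and a −log10 q of 323. Both were strong, and they stood 17.6 and 20.1 kb from the upstream end of a 27 kb span. The nearest CDCA peak was 37461 bp from the nearer of them. SNX8 overlaps EIF3B.

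EIF2S2, the beta subunit of the eIF2 complex that brings the initiator tRNA, had its leading CDCA peak and its shared site near the downstream end. The leading peak was CDCA-only, 496 bp on chromosome 20 at 32677274 to 32677769, with a height of 1994 (3117 steps, 3009 to 3228), a background of 255, a fold of 7.79 and a −log10 q of 1023. Its summit was 1.49 kb before the downstream end of a 25 kb span. Only 355 bp separated it from the nearest control peak. That neighbour was the shared site of EIF2S2, a CDCA peak at 32678142 to 32678506 (height 145, fold 8.56, −log10 q 80.8) and a control peak at 32678124 to 32678377 (height 108, fold 8.18, −log10 q 58.5). These overlapped by 236 bp, with summits 138 bp apart.

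The remaining peaks of EIF2S2 were weak and lay apart. The CDCA list had 1 at 32691130 to 32691354 (height 88.9, fold 9.56, −log10 q 54.3), and the control list had 1 at 32696751 to 32697085 (height 62.1, fold 19.1, −log10 q 62.3). The control peak had the lowest background of the 8 control peaks, 2.30. By −log10 q it led the control peaks of EIF2S2, and by height the shared peak did, with counting intervals of 56.3 to 90.7 steps against 104 to 149.

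EIF4G2, EEF1A1 and EEF2 had no listed peak in either condition. EIF4G2 encodes a relative of eIF4G1 that does not bind the cap-binding factor, EEF1A1 delivers aminoacyl-tRNA to the ribosome, and EEF2 moves the ribosome by a codon. Around the 13 kb EIF4G2 span (chromosome 11 at 10818000 to 10831000), the nearest summits were 17617 bp away in the CDCA list and 17606 bp away in the control list. For EEF1A1 (chromosome 6 at 74225000 to 74231000) the distances were 10135 bp in CDCA and 21058 bp in control. For EEF2 (chromosome 19 at 3976000 to 3986000) they were 16890 bp in CDCA and 16899 bp in control. Absence from a list gives no upper limit on methylation, as the lists hold no values below their thresholds. The genes differ in how many named copies they have: RefSeq lists 80 pseudogenes by symbol for RPL7A, 50 for EEF1A1, 37 for RPL32, 35 for RPL5 and 7 for EIF2S2, and 0 for EIF3B, EIF4G1, EEF2 and EIF4G2. How reads that match several copies were treated is not given in the sources used here, so values of the genes with copies are uncertain.

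Gaps in the running peak numbers show that further peaks had been numbered in and around these genes. Numbers follow position along each chromosome, and a missing number belongs to a peak that is not listed. Such gaps are common everywhere: 47941 of 100129 numbers were skipped in the CDCA list and 47060 of 110153 in the control list. All 8 strong peaks of 1 library alone lay where the other list skipped at least 1 number between its nearest listed neighbours. That is usual for such peaks: over the whole lists it held for 352 of 361 strong CDCA-only peaks (97.5%, 95.3 to 98.9) and 559 of 607 strong control-only peaks with neighbours on both sides (92.1%, 89.7 to 94.1). For RPL7A the CDCA list skipped 9 numbers there, for RPL32 2 and for EIF3B 8. For RPL5 and for the leading EIF2S2 peak the control list skipped 9 each, and for the EIF4G1 peak near the downstream end 3. These neighbours can lie far outside the gene, so most of the missing numbers have no known place.

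A few can be placed within a gene. Between its first and second EIF4G1 peaks the CDCA list skipped 3 numbers, and the control-only EIF4G1 peak at 184043342 lies in that interval. It skipped 1 between its 2 EIF2S2 peaks that lie farthest upstream. The control list skipped 1 number between its 2 EIF4G1 peaks, 1 between its 2 EIF3B peaks and 2 between its 2 EIF2S2 peaks, and the weak CDCA-only EIF2S2 peak at 32691130 lies in the last of these intervals. In the spans of the genes without peaks, up to 2, 3 and 5 numbers could lie in the CDCA list for EEF1A1, EEF2 and EIF4G2, and up to 4, 4 and 2 in the control list, again between neighbours outside the span. Whether any skipped number was a partner of a listed peak was not tested.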

How the data were processed

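The members and lists were chosen with earlier results of these data known. Per the submitters' processing notes, TopHat2 2.0.13, MACS2 2.1.0 and hg19 were used, with no roles given and no thresholds stated. The authors deposited 1 peak list per immunoprecipitation library, not pooled. Per the file headers, each peak has a height (a signal at the summit), a fold enrichment (a ratio), and −log10 of its p-value and q-value. Depth in reads is unknown. Heights were whole multiples of 0.640 in the CDCA list and 0.862 in the control list for 100% of peaks. The tolerance was 0.02 steps plus a small allowance for the rounding of the heights.

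Spans were given to 1 kb, and were 0.340 to 1.90 kb longer than the RefSeq gene of GRCh38.p14, a table used for names, neighbours and copies only. Peaks were assigned by summit. All 9 genes are named: the leading peak of each gene and list and every strong peak of 1 library alone are given in full. Peaks sharing at least 1 bp were called shared. Local background is (height + 1) / fold − 1. Intervals are at 95%. No test between conditions was possible. Bands of local background were chosen after the values had been seen. Other genes of the pathway were not analysed here, for want of an hg19 annotation. Overlap and height-unit steps were tested on simulated data. Alternatives covered thresholds, list length, span, overlap and strength measure. Scripts ran in Python 3.11.15 (scipy 1.17.1, pandas 2.3.3, numpy 2.4.6; figures in matplotlib 3.10.9).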

Additional observations from a re-analysis of the deposited data

How the results depend on the processing

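No paired analysis was possible because each condition had 1 library. Of 72 alternative values, 5 left 1.5 times a count or the 95% interval of a value, all under stricter or looser levels. With 7 and 8 peaks these intervals are so wide that the other 67 say little about stability. With a fold of at least 10, the CDCA list kept 1 peak in 1 gene, which was shared (100%), and the control list kept 5 peaks in 4 genes, of which 1 was shared. With the level for strong peaks lowered to a −log10 q of 50, CDCA-treated cells had 5 strong peaks of 1 library alone, and the control list 6. When summits had to lie within 100 bp, 1 peak of each list was shared (14.3% in CDCA and 12.5% in control). Widening the spans by 1 kb, using any overlap of peak and span, or cutting both lists to 52188 peaks changed no count of peaks or genes. Leaving out genes was added after the values had been seen. The median local background of the CDCA peaks was then 120.0 without EIF2S2, 128 without EIF4G1 and 34.4 without RPL5, against 40.0 with all genes. That of the control peaks was 44.9 to 58.7.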

Other observations

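Just beyond the spans, both lists held peaks that the rule for membership left out. The closest lay downstream of the RPL5 span, with a summit 1221 bp past its end in the CDCA list (−log10 q 515) and 1162 bp past it in the control list (−log10 q 247). The next closest was 3145 bp below the RPL32 span in the control list (−log10 q 9.77), followed by those below the RPL7A span, at 4179 bp in the CDCA list (−log10 q 82.8) and 4156 bp in the control list (−log10 q 62.4). The gene to which these peaks belong was not determined.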
